A study of Homo sapiens with 6 samples.

Results

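The 8 RNAs described here are long noncoding RNAs (lncRNAs) that most human cell types transcribe: NEAT1, MALAT1, NORAD, TUG1, KCNQ1OT1, OIP5-AS1, CYTOR and PVT1. They were taken by symbol from a table of read counts for 36601 genes, in which all 8 had an entry and all 8 were among the 12263 genes that passed the filter on low counts. The table came from NK-92 cells (NK92), a human natural killer (NK) lymphoma line that depends on IL-2, stably carrying either a control short hairpin RNA (shCtrl) or a hairpin against the lncRNA miR155HG (shmiR155HG). Each group had 3 libraries, and every library was made after 12 h in IL-2 at 1000 U/mL plus IL-12 at 10 ng/mL, so no unstimulated cells were compared. RNA was captured by its poly(A) tail with oligo(dT) beads and sequenced as paired reads of 150 bases. The treatment label of shmiR155HG replicates 2 and 3 names a gene with another number, and these libraries were grouped by their titles. The question was which of the 8 lncRNAs differed in level when miR155HG was knocked down, and by how much.

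As background, these lncRNAs work in different compartments. NEAT1 builds paraspeckles, nuclear bodies in which it holds RNA-binding proteins such as SFPQ and NONO, while MALAT1 gathers in nuclear speckles beside splicing factors. KCNQ1OT1 stays at the imprinted locus from which it is transcribed, TUG1 is found in both nucleus and cytoplasm, NORAD binds Pumilio proteins in the cytoplasm, OIP5-AS1 directs the decay of the microRNA miR-7, CYTOR has been linked to cell growth and migration, and PVT1 lies beside the oncogene MYC.

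Total counts ran from 33454786 to 39157264 per library, the scaling factors lay between 0.997 and 1.003, and replicates of a group varied around a common biological coefficient of variation of 8.71%. Below, the values of a group’s 3 libraries follow the replicate number. MIR155HG, the target of the hairpin, had 73, 67 and 62 counts in the shCtrl libraries and 28, 19 and 10 in the shmiR155HG libraries, and its log2 fold change was −1.78 (SE 0.43, adjusted p = 0.00450 by the quasi-likelihood test of edgeR). Levels are given as CPM, the usual unit of reads relative to the scaled total of the library. MIR155HG stood at 1.88, 1.84 and 1.59 CPM in the shCtrl libraries and at 0.73, 0.50 and 0.30 CPM in the shmiR155HG libraries. It was thus near the floor and passed the filter only through the shCtrl libraries. Of 18 NK cell markers, 17 passed the filter on low counts, with CD7 near 0, and their summed level was lower in shmiR155HG libraries (5110 to 5290 CPM) than in shCtrl libraries (5570 to 5630 CPM). CD3D, CD3G, CD4, CD8A and CD8B were near 0 in every library. Other genes of the T cell list were not: CD3E, TRBC2, TRBC1, TRAC and CD6 had means of 333, 212, 127, 72.4 and 26 CPM. The summed level of 11 T cell receptor and CD3 genes, of which 5 passed the filter, was 722 to 753 CPM in shCtrl and 791 to 830 CPM in shmiR155HG libraries. That of 5 B cell genes, of which PAX5 alone passed, was 229 to 265 CPM and 341 to 344 CPM, and that of 7 myeloid genes, of which 3 passed, was 21.4 to 29.3 CPM and 15.8 to 21.8 CPM. The part of these shifts in the results that follow was not tested. Because bulk RNA was measured, a change in RNA per cell and a change in the share of cells that hold an RNA cannot be told apart.

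The 8 lncRNAs together took 0.119%, 0.117% and 0.116% of all counts in the shCtrl libraries and 0.120%, 0.122% and 0.123% in the shmiR155HG libraries. The groups did not overlap, and the means differed by 0.00415 percentage points (p = 0.1 in a two-sided exact permutation test, with no smaller p possible for 3 libraries against 3). Of these counts, NORAD made up 25.4% to 27.5% in each library, OIP5-AS1 23.0% to 23.8%, TUG1 20.2% to 22.9% and NEAT1 13.5% to 16.4%. MALAT1 made up 7.06% to 8.07%, PVT1 3.11% to 3.74%, CYTOR 1.97% to 2.63%, and KCNQ1OT1 0.214% to 0.371%. Not all of them were abundant in these cells: 95.7% of the genes tested had a lower mean CPM than NORAD, and 76.1% a lower one than MALAT1, but only 44.2% a lower one than CYTOR and 17.1% a lower one than KCNQ1OT1.

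Long RNAs collect more reads, so levels were compared between genes as CPM per kb of the longest annotated transcript, over all 6 libraries. By this measure NORAD stood highest at 58.3 ± 1.63 CPM per kb (SD, n = 6). TUG1 at 35.5 ± 2.13 and OIP5-AS1 at 31.6 ± 0.860 CPM per kb came next, with overlapping ranges. PVT1 followed at 16.6 ± 1.24 CPM per kb, and MALAT1 at 8.75 ± 0.296 and NEAT1 at 7.61 ± 0.564 again overlapped. RNA was captured by its poly(A) tail, and the captured forms of MALAT1 and NEAT1 may differ in length from these transcripts. Their places in this order hold only for the lengths used. CYTOR stood at 3.56 ± 0.306 CPM per kb, and KCNQ1OT1, whose annotated transcript is 91667 nt long, at 0.0385 ± 0.00859 CPM per kb. With the length of all annotated exons in place of 1 transcript, PVT1 fell from the fourth place to the sixth, at 1.6 ± 0.119 CPM per kb, and overlapped CYTOR at 1.5 ± 0.129 CPM per kb. The other neighbours kept their order, with TUG1 at 26.2 ± 1.57 and OIP5-AS1 at 12.5 ± 0.341 CPM per kb no longer overlapping.

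**Figure D1:**
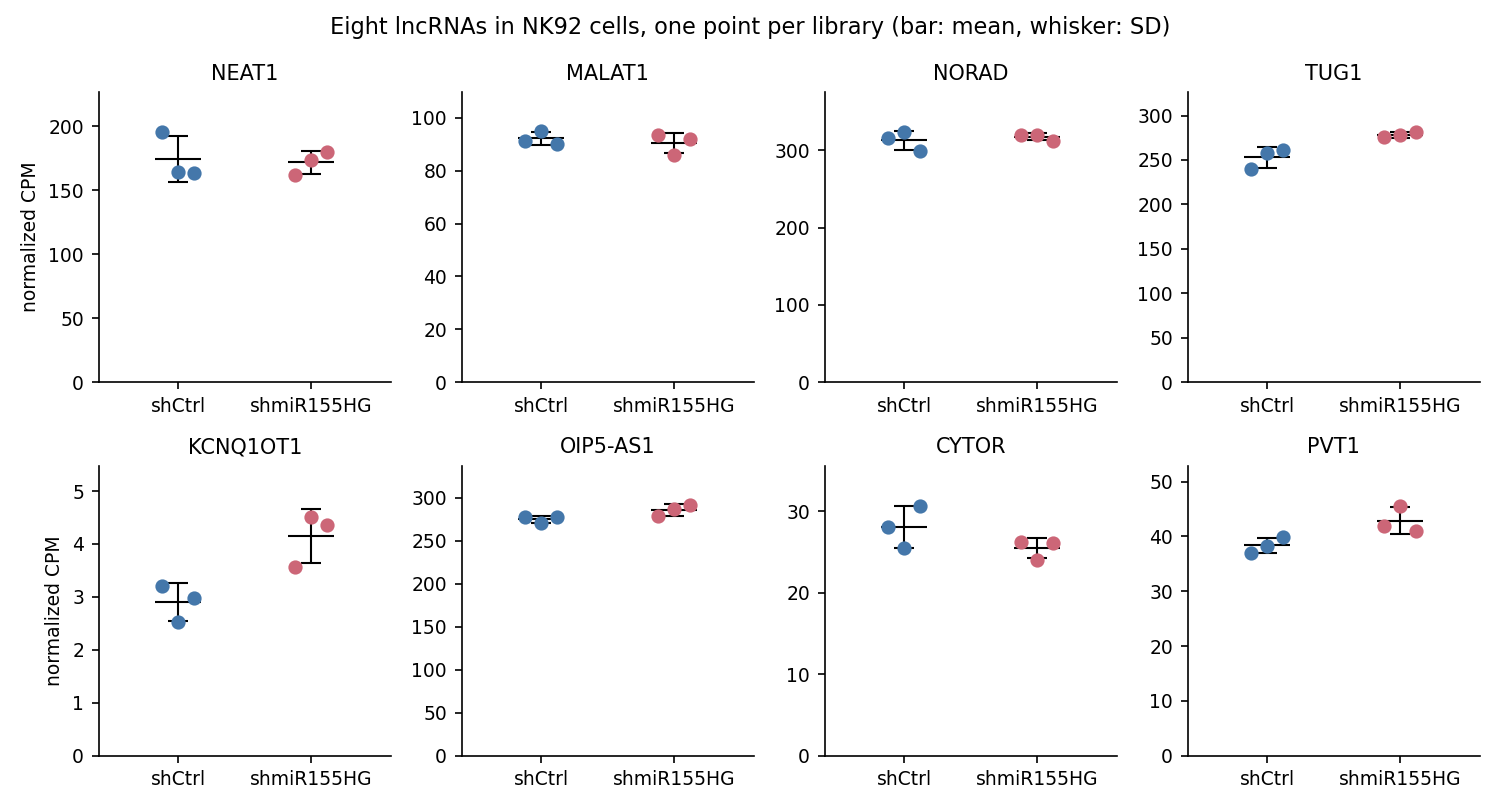
Normalized CPM (y axis, from 0, a separate scale for each gene) of the 8 lncRNAs in shCtrl and shmiR155HG libraries (x axis), with 1 point per library in replicate order, the bar at the mean and whiskers of 1 SD (n = 3). The shmiR155HG points of TUG1, KCNQ1OT1, OIP5-AS1 and PVT1 all lie above the shCtrl points of the same gene, and the groups overlap for the other 4 genes.

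Of the 8 lncRNAs, 1 was called at an adjusted p under 0.05 (quasi-likelihood test of edgeR, adjusted by Benjamini-Hochberg over all genes tested), against 15.3% of all genes tested. This was TUG1, which was higher in shmiR155HG cells, a direction in which 7.26% of all genes were called. None was called lower, where 8.02% of all genes were. At an unadjusted p under 0.05 there were 3, namely TUG1, PVT1 and KCNQ1OT1, against 27.3% of all genes. The libraries of the groups did not overlap for TUG1, KCNQ1OT1, OIP5-AS1 and PVT1, all higher in shmiR155HG, and this was so, in either direction, for 30.8% of all genes. With 8 genes, these counts are too few to set the lncRNAs apart from the table as a whole. Their median log2 fold change was 0.04 (0.00097 over all genes), and their median absolute log2 fold change was 0.10 (0.12 over all genes).

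**Figure D2:**
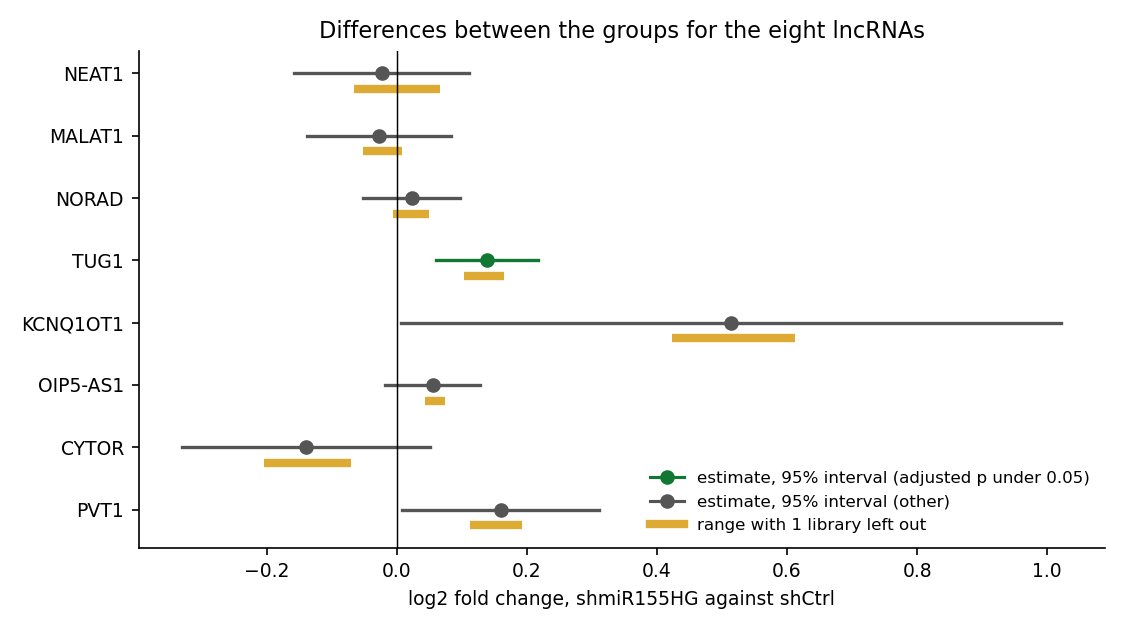
Log2 fold change of each lncRNA, shmiR155HG against shCtrl (x axis), with its 95% interval as a thin bar and the range of the estimates with 1 library left out as a thick bar. The interval of TUG1 runs from 0.06 to 0.22, while those of NEAT1, MALAT1, NORAD, OIP5-AS1 and CYTOR include 0, and KCNQ1OT1 has the widest, from 0.0066 to 1.02.

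TUG1 (ENSG00000253352) lies on the plus strand of hg38 at chr22:30969245-30979395. The annotation used here types the gene as protein coding, although it is known mainly as a lncRNA, and its longest transcript has 3 exons and 7474 nt. Its level was 239.6, 257.6 and 261.2 CPM in the shCtrl libraries and 275.6, 277.6 and 281.8 CPM in the shmiR155HG libraries. Every shmiR155HG library was above every shCtrl library, and shCtrl replicate 1 was the lowest of the 6. TUG1 therefore rose from 253 ± 11.6 CPM to 278 ± 3.17 CPM (SD, n = 3), a 1.10-fold difference. The log2 fold change was 0.14 (SE 0.038, 95% interval 0.06 to 0.22, adjusted p = 0.0128 by the quasi-likelihood test of edgeR). The call was lost without shCtrl replicate 1 (log2 fold change 0.10, adjusted p = 0.0981), without shmiR155HG replicate 2 (0.14, adjusted p = 0.0527) and without shmiR155HG replicate 3 (0.13, adjusted p = 0.0608), in the same edgeR fit. It was kept without each of the other 3 libraries. The rule used in the study, an exact test with a fold change over 1.2, did not call TUG1, whose fold was smaller. The genes on the opposite strand that overlap TUG1, AC004542.1 and AC004542.2, had 2 to 4 counts in sum per library.

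Where the mean was 10 CPM or more, the 3 genes whose log2 CPM followed TUG1 most closely over the 6 libraries were CAB39L (Pearson r = 0.997), SCAND1 (r = 0.997) and HRAS (r = 0.995). They are described from 8789 genes and 6 points that share library and depth, so high values of r arise for many genes. TUG1 has been reported to bind PRC2, the complex that methylates histone H3 at lysine 27, and 2 of the 12 PRC2 genes tested fell (16.7% called, near the 15.3% of all genes). They were SUZ12, from 411 ± 9.09 CPM to 354 ± 8.24 CPM (log2 fold change −0.22, SE 0.034, adjusted p = 4.35e-05), and EZH2, the catalytic subunit, from 266 ± 4.6 CPM to 241 ± 3.83 CPM (−0.14, SE 0.036, adjusted p = 0.00695, by edgeR as above). EZH2 lost its call without shmiR155HG replicate 2 (adjusted p = 0.0541 by edgeR). No PRC2 gene was called higher. By the rule used in the study, none was called in either direction, against 551 higher and 466 lower of all 12263 genes.

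**Figure D3:**
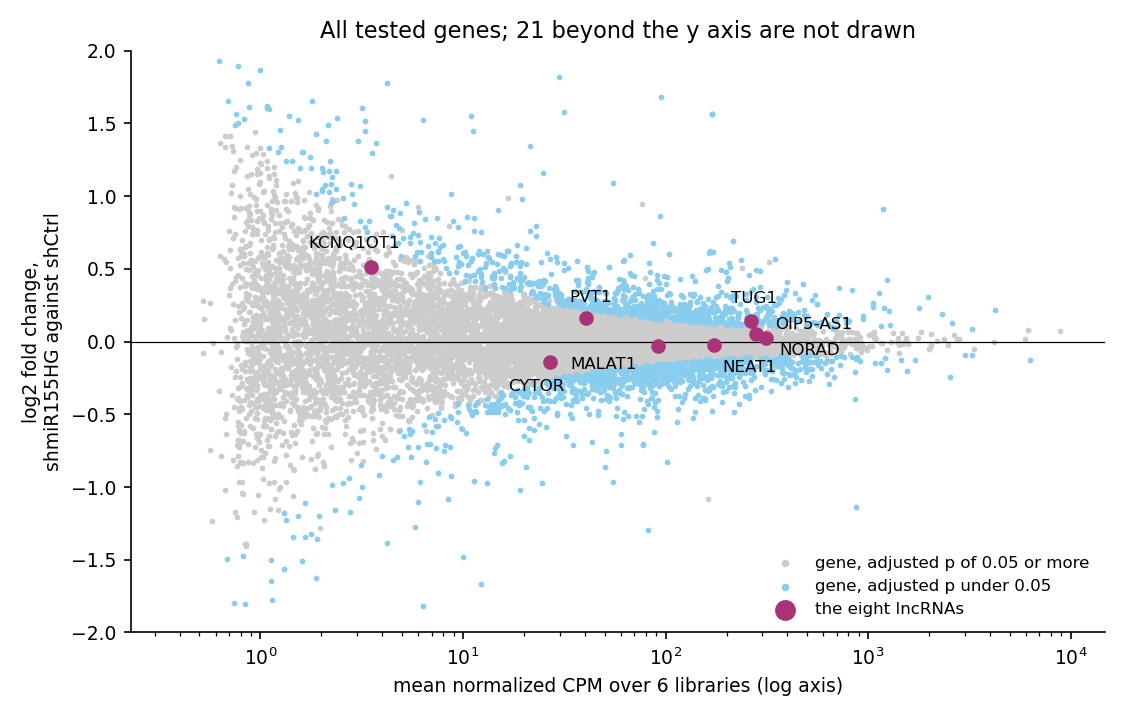
Log2 fold change, shmiR155HG against shCtrl (y axis), against mean normalized CPM over 6 libraries (x axis, log scale), with 1 point per gene tested. Blue points have an adjusted p under 0.05, grey points do not, the 8 lncRNAs are drawn in purple, and 21 genes beyond the limits of −2 and 2 are not drawn. TUG1 lies at the edge of the grey band at a mean near 266 CPM, and the other 7 lncRNAs lie within the band.

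NEAT1 (ENSG00000245532, chr11:65422774-65445540, plus strand) and MALAT1 (ENSG00000251562, chr11:65497640-65508073, plus strand) are neighbours on chromosome 11. The longest annotated transcript of each is 1 exon, of 22743 nt and 10434 nt. As background, the main form of MALAT1 and the long form of NEAT1 are not polyadenylated. Each is cut free at the end of a genome-encoded A-rich tract that pairs with a pair of U-rich tracts, whereas a short form of NEAT1 has an ordinary poly(A) tail. These ends matter here because poly(A) RNA alone was captured, so the counts need not follow the whole pool of either RNA. They are shown as DNA of the plus strand from hg38, with the tracts found by letter (TTTCTTTT, TTGCTTTT and AAAAGCAAA) in capitals.
MALAT1 end, chr11:65506007-65506116: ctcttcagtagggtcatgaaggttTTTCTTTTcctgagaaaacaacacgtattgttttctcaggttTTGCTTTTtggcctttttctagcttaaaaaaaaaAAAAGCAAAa
NEAT1 end, chr11:65445431-65445540: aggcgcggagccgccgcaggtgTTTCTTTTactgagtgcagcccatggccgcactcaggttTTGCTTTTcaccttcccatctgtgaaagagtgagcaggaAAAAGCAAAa
The NEAT1 window ends with the annotated gene, and the MALAT1 window ends 1957 bases before the annotated end, so annotated MALAT1 sequence goes on past the tracts.

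The level of NEAT1 was 195.1, 164.5 and 163.4 CPM in the shCtrl libraries and 161.8, 173.3 and 179.7 CPM in the shmiR155HG libraries. The groups overlapped, and shCtrl replicate 1 was the highest of the 6 libraries. The means were 174 ± 18.0 CPM and 172 ± 9.10 CPM (SD, n = 3), a log2 fold change of −0.02 (SE 0.063, 95% interval −0.16 to 0.11, adjusted p = 0.860 by edgeR). The sign of this small difference turned without shCtrl replicate 1 (log2 fold change 0.07) and also without shmiR155HG replicate 1 (0.02). MALAT1 stood at 91.38, 95.02 and 90.22 CPM in the shCtrl libraries and at 93.50, 86.04 and 91.86 CPM in the shmiR155HG libraries. The groups overlapped here too, with means of 92.2 ± 2.50 CPM and 90.5 ± 3.92 CPM (SD, n = 3). The log2 fold change was −0.03 (SE 0.054, 95% interval −0.14 to 0.08, adjusted p = 0.798 by edgeR). For either RNA, no difference was detectable at this depth and number of libraries, and a change inside these intervals could have been missed.

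The ratio of NEAT1 to MALAT1 counts within a library needs no scaling between libraries. On the log2 scale it was 1.09, 0.79 and 0.86 in the shCtrl libraries and 0.79, 1.01 and 0.97 in the shmiR155HG libraries. The groups overlapped, and their means of 0.91 ± 0.16 and 0.92 ± 0.12 differed by 0.0088 (exact permutation test, two-sided, p = 1, where 3 libraries against 3 allow no p below 0.1).

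Some other RNAs that mainly lack a poly(A) tail did differ between the groups. Of the 12 tested, which were histone mRNAs and RMRP, the RNA of an RNA-cutting enzyme, 8 were called higher and none lower. This was 66.7% called, against 15.3% of all genes, and the median log2 fold change was 1.29. Several of the 8, RMRP among them, were under 1 CPM in every shCtrl library. They passed the filter only through the shmiR155HG libraries, so the filter favoured RNAs that were higher there. Under the alternatives that kept all libraries, 3 to 9 were called higher. The summed level of the 12 was 51.9, 51.8 and 47.7 CPM in the shCtrl libraries and 89.1, 97.0 and 89.9 CPM in the shmiR155HG libraries. HIST1H2AC, which encodes a core histone, rose from 12.2 ± 1.97 CPM to 30.9 ± 0.714 CPM (log2 fold change 1.35, SE 0.11, adjusted p = 7.86e-10 by edgeR). HIST1H2BK, another, rose from 6.44 ± 0.921 CPM to 11.4 ± 1.05 CPM (0.83, SE 0.16, adjusted p = 0.000484 by edgeR). The 95% intervals of NEAT1 (up to 0.11) and MALAT1 (up to 0.08) lay below those of HIST1H2AC and HIST1H2BK, which were named for their large called changes. They did not lie below those of all 12. The histone RNA with the highest mean of the 12 was not called, and its interval of 0.03 to 0.43 overlapped both. This list was known from earlier results of these data to be higher, and whether the capture of RNA without a tail differed between the groups was not tested.

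**Figure D4:**
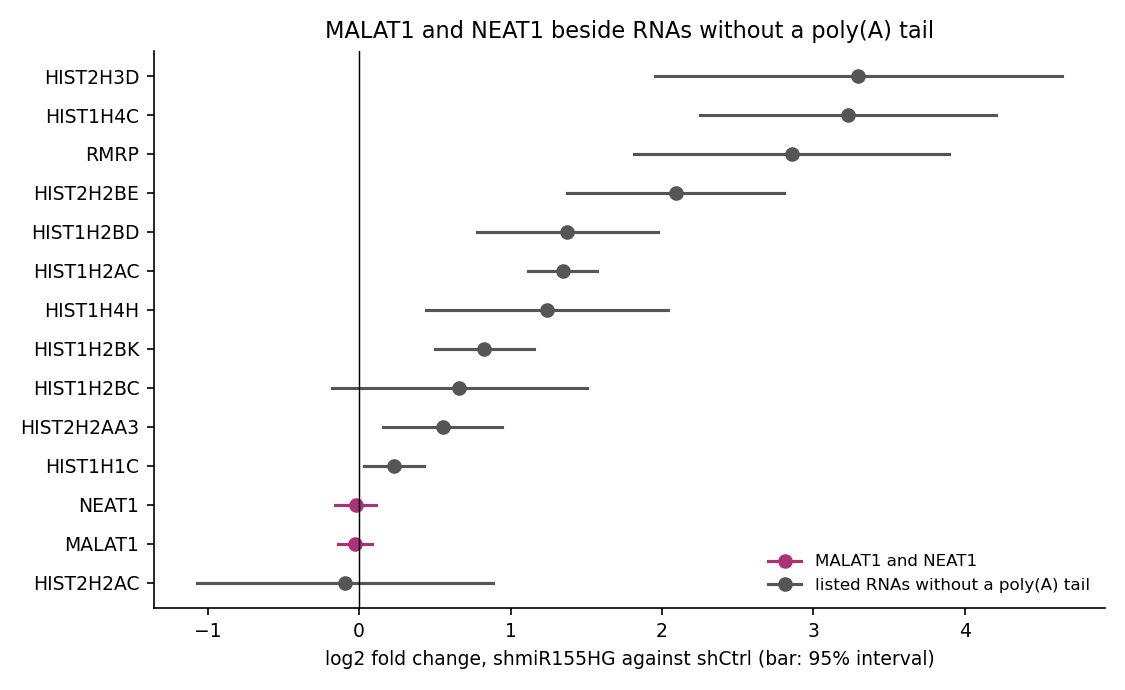
Log2 fold change, shmiR155HG against shCtrl (x axis), of NEAT1 and MALAT1 (purple) and of the 12 tested RNAs that mainly lack a poly(A) tail (grey), each with its 95% interval. NEAT1 at −0.02 and MALAT1 at −0.03 sit beside 0, while 11 of the 12 other RNAs have a positive estimate. Several of these passed the filter only through the shmiR155HG libraries.

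The protein partners of NEAT1 in paraspeckles moved in both directions. Of 41 entries tested, 6 were higher and 4 lower (24.4% called, against 15.3% of all genes), with a median log2 fold change of 0.0089. SFPQ, a paraspeckle core protein, rose from 656 ± 8.60 CPM to 701 ± 8.03 CPM (log2 fold change 0.10, SE 0.031, adjusted p = 0.0317 by edgeR), but kept its call in only 1 of the 6 fits with a library left out. NONO, its usual partner, fell from 652 ± 16.4 CPM to 596 ± 7.99 CPM (−0.13, SE 0.032, adjusted p = 0.00497). PSPC1, a relative of both, rose from 41.4 ± 2.19 CPM to 50.6 ± 1.77 CPM (0.29, SE 0.069, adjusted p = 0.00446), and the calls of NONO and PSPC1 held in all 6 such fits. RUNX3, listed because the protein was found in paraspeckles but better known as a transcription factor of NK and T cells, rose from 156 ± 2.73 CPM to 219 ± 4.79 CPM (0.49, SE 0.039, adjusted p = 5.17e-10). AKAP8L also rose, by 0.23 on the log2 scale. RBM7 (−0.24), CIRBP, a cold-inducible RNA-binding protein (−0.16), and NUDT21, a subunit of the complex that places poly(A) sites (−0.15), fell in log2 fold change. AKAP8L lost its call without shCtrl replicate 2, NUDT21 without shCtrl replicates 1 or 2 or shmiR155HG replicate 1, and CIRBP without shCtrl replicate 1 or shmiR155HG replicate 3. RBM7 kept its call only without shmiR155HG replicate 3. With a library left out, the list held 3 to 9 genes higher and 1 to 5 lower.

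Of 46 genes of nuclear speckles and SR proteins, the splicing factors near which MALAT1 gathers, 2 were higher and 4 lower (13% called, against 15.3% of all genes), with a median log2 fold change of 0.0051. By the rule used in the study, an exact test with a fold change over 1.2, none of them was called in either direction. Of all 12263 genes, that rule called 551 higher and 466 lower. SON, a scaffold of the speckle, rose from 511 ± 21.3 CPM to 562 ± 13.4 CPM (log2 fold change 0.14, SE 0.035, adjusted p = 0.00677 by edgeR), a call that was lost without shmiR155HG replicate 2. PNN, the other that rose, went up by 0.14 on the log2 scale and lost its call without shmiR155HG replicate 1. SRPK1, a kinase of SR proteins, fell by 0.17 on the log2 scale and kept its call in edgeR's quasi-likelihood test with any library left out. TRA2A (−0.24) and CCNL1 (−0.14) fell too, but TRA2A was called in only 2 of the 6 fits with a library left out, and CCNL1 in 5. The log2 fold change of SRRM2, the second scaffold, was −0.02 (95% interval −0.09 to 0.05, adjusted p = 0.740), and that of SRSF1, an SR protein that binds MALAT1, was 0.01 (−0.05 to 0.07, adjusted p = 0.844, by edgeR as above). Each of these small values changed sign without shCtrl replicate 3.

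NORAD (ENSG00000260032, chr20:36045618-36051018, minus strand) is 1 exon of 5401 nt and had the highest level of the 8. It is known for its many binding sites for Pumilio proteins, which shorten the life of the mRNAs they bind. The motif TGTANATA, searched on the transcript strand, occurred 15 times in NORAD, at positions 819 to 4657 of the transcript, or 2.78 per kb. Among 11635 longest transcripts of at least 1000 nt from genes tested, 34.4% held the motif, and the share with as high a density as NORAD was 0.0% after rounding. The core was TGTATATA at 10 of the matches, TGTAAATA at 4 and TGTACATA at 1. In 3 cases a pair of matches started 9 bases apart. The 4 matches shown here, written 5′ to 3′ on the transcript strand (hg38, minus strand) with the motif in capitals, are chosen to show both common cores.
chr20:36049806-36049829: cactactgTGTATATAgttgacaa
chr20:36047974-36047997: ccctactgTGTATATAgcggacaa
chr20:36049705-36049728: tcacatttTGTAAATAcctttttg
chr20:36046347-36046370: agcctattTGTAAATAcctttgtt
A match of letters describes the sequence, and binding was not measured.

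The level of NORAD was 315.2, 323.5 and 299.0 CPM in the shCtrl libraries and 319.8, 320.3 and 312.3 CPM in the shmiR155HG libraries. The groups overlapped, with shCtrl libraries both highest and lowest. The means were 313 ± 12.5 CPM and 318 ± 4.46 CPM (SD, n = 3), a log2 fold change of 0.02 (SE 0.036, 95% interval −0.05 to 0.10, adjusted p = 0.749 by edgeR). A change inside this interval could have been missed. Of 16 Pumilio proteins and other partners of NORAD tested, none was called in either direction, against 15.3% of all genes. In the same edgeR fit, 3 of the 16 had an unadjusted p under 0.05, against 27.3% of all genes. The log2 fold change of PUM2 was −0.04 (SE 0.042, adjusted p = 0.578 by edgeR), and it changed sign without shCtrl replicate 2. NORAD also held 3 matches to the seed of miR-155, the microRNA encoded within MIR155HG (0.555 per kb, a density reached by 1.0% of the transcripts searched). The seed match is AGCATTA, which 20.4% of the transcripts held at least once. Of the other lncRNAs, KCNQ1OT1 held 7 of these matches, CYTOR 2, MALAT1 and OIP5-AS1 1 each, and NEAT1, TUG1 and PVT1 none. The mature miR-155 is shown as RNA with its seed (bases 2 to 8) in capitals, from RefSeq for GRCh38.p14.
hsa-miR-155-5p: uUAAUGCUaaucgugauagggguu
The level of mature miR-155 was not measured in these poly(A) libraries.

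**Figure D5:**
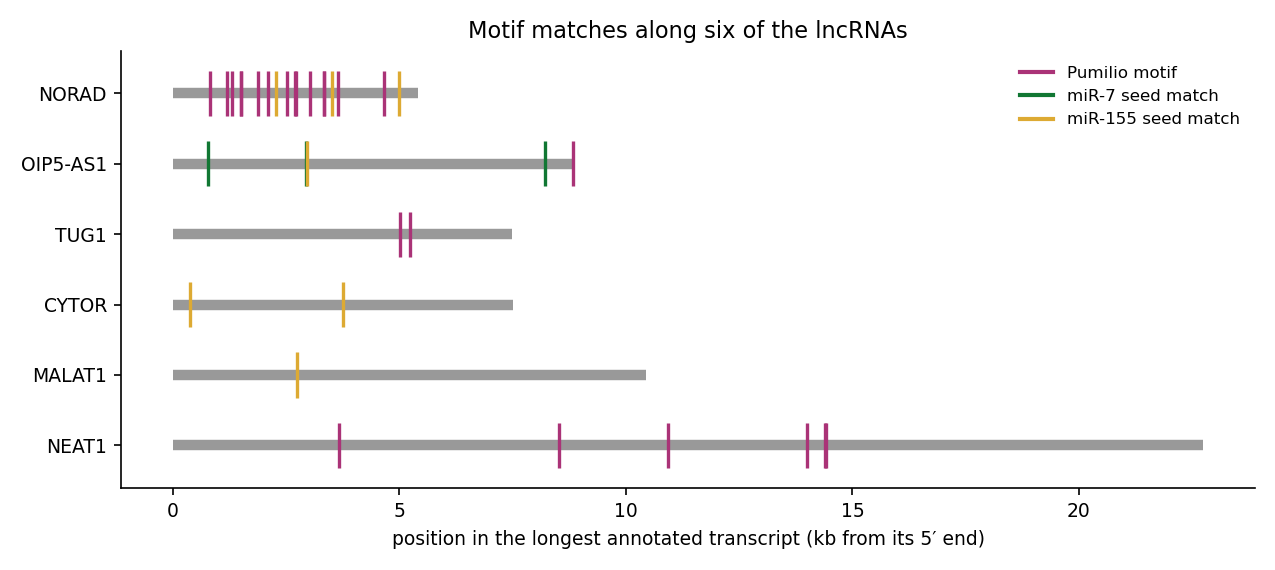
Positions of motif matches (kb from the 5′ end, x axis) along the longest annotated transcript of 6 of the lncRNAs (grey bars, to scale). NORAD holds 15 Pumilio motifs within 5401 nt against 6 in the 22743 nt of NEAT1, OIP5-AS1 holds 3 seed matches of miR-7, of which the second lies almost under the mark of its miR-155 match, and KCNQ1OT1 and PVT1 are not drawn.

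OIP5-AS1 (ENSG00000247556, chr15:41283958-41322392, plus strand) has 4 exons and 8881 nt in its longest transcript. It is known from animals as Cyrano, whose nearly complete pairing with miR-7 leads to the decay of that microRNA through the ubiquitin ligase adaptor ZSWIM8. The transcript held 3 matches to the seed of miR-7 (GTCTTCC), or 0.338 per kb, a density reached by 8.8% of the transcripts searched, and 29.4% of these held at least 1. All 3 lie in exon 4. They are shown 5′ to 3′ (hg38, plus strand) below the mature miR-7 from RefSeq (GRCh38.p14), with capitals for the seed in the microRNA, and for the seed match and the longest further paired run in OIP5-AS1.
hsa-miR-7-5p: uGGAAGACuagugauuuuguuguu
chr15:41298407-41298436: gacttcagggtttaaaaAAAATGTCTTCCa
chr15:41300570-41300599: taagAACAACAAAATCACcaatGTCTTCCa
chr15:41305850-41305879: tgTCAtatcctgaatatagtttGTCTTCCc
At the second match, 14 further bases in a row can pair with positions 11 to 24 of miR-7, while the longest further run was 5 bases at the first match and 3 at the last. No other lncRNA of the 8 except KCNQ1OT1, with 6, held a seed match of miR-7.

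The level of OIP5-AS1 was 277.4, 270.5 and 277.4 CPM in the shCtrl libraries and 278.4, 287.5 and 291.4 CPM in the shmiR155HG libraries. The groups did not overlap, but the lowest shmiR155HG library was within 1 SD of the highest shCtrl library. The means were 275 ± 3.97 CPM and 286 ± 6.69 CPM (SD, n = 3), a log2 fold change of 0.05 (SE 0.036, 95% interval −0.02 to 0.13, adjusted p = 0.345 by edgeR). OIP5-AS1 shares 759 exon bases with OIP5 on the opposite strand and 195 with NUSAP1 on its own strand, and the sum of those genes was 6530 to 8748 counts per library. How counting treated strand is not given in the sources used here, so some reads may have been placed in the wrong gene. With the counts of the overlapping genes added, the log2 fold change was −0.03 (adjusted p = 0.580 by edgeR). NUSAP1, a mitotic spindle protein, fell from 188 ± 7.62 CPM to 171 ± 3.98 CPM (log2 fold change −0.14, SE 0.041, adjusted p = 0.0247), and lost its call without shCtrl replicate 1 and without shmiR155HG replicates 2 or 3. OIP5, a centromere protein, went from 26.5 ± 2.38 CPM to 21.7 ± 3.19 CPM (−0.29, SE 0.11, adjusted p = 0.0699, by edgeR as above). By the rule used in the study, which called 551 of 12263 genes higher and 466 lower, none of 10 genes of the ligase was called. In the main edgeR fit 1 of them was called, or 10%, against 15.3% of all genes. This was RNF7, a RING subunit, which rose from 44.3 ± 1.49 CPM to 52.7 ± 5.53 CPM (0.25, SE 0.074, adjusted p = 0.0199 by edgeR). Its call was lost without shCtrl replicate 1 or shmiR155HG replicate 3. The log2 fold change of ZSWIM8 itself was −0.03 (95% interval −0.16 to 0.10, adjusted p = 0.793 by edgeR), which changed sign without shCtrl replicate 3.

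KCNQ1OT1 (ENSG00000269821, chr11:2597308-2700003, minus strand) is transcribed through the gene KCNQ1 in the opposite direction, and on the paternal chromosome it silences neighbouring genes. It was the scarcest of the 8, with 125, 92 and 116 counts in the shCtrl libraries and 137, 172 and 146 in the shmiR155HG libraries. The level was 3.21, 2.52 and 2.98 CPM in the former and 3.57, 4.52 and 4.37 CPM in the latter. Each shmiR155HG library was above each shCtrl library, with means of 2.90 ± 0.351 CPM and 4.15 ± 0.509 CPM (SD, n = 3). The 1.43-fold difference was the largest of the 8 and the least precise, with a log2 fold change of 0.51 (SE 0.25, 95% interval 0.0066 to 1.02, unadjusted p = 0.0473, adjusted p = 0.177 by edgeR), and it was not called. Over its alternatives, including each library left out, the log2 fold change stayed between 0.42 and 0.61 and was called in none of 16. KCNQ1, with which it shares 121 exon bases, was at 0 counts in all 6 libraries, which allows up to 3 counts per library. CDKN1C, a cell cycle inhibitor silenced by this locus, had 3 counts in shCtrl replicate 1 and 0 in the other 5 libraries. Of 16 genes of the imprinted domain in the table, 6 were tested. None was called by the rule used in the study, which called 551 of 12263 genes higher and 466 lower. In the main edgeR fit 1 was called (16.7%, near the 15.3% of all genes). This was CD81, a tetraspanin of the cell surface, which rose from 97.4 ± 4.47 CPM to 113 ± 2.09 CPM (log2 fold change 0.22, SE 0.050, adjusted p = 0.00281 by edgeR).

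CYTOR (ENSG00000222041, chr2:87454781-87636740, plus strand) has a near copy on the same chromosome, MIR4435-2HG (ENSG00000172965, chr2:111006015-111523376, minus strand), so the split of reads between them is uncertain. Of the 18342 distinct runs of 31 bases in CYTOR exons, 11349, or 61.9%, also occur in exons of MIR4435-2HG. CYTOR stood at 28.1, 25.4 and 30.6 CPM in the shCtrl libraries and at 26.2, 24.0 and 26.1 CPM in the shmiR155HG libraries. The groups overlapped, with means of 28.0 ± 2.59 CPM and 25.5 ± 1.23 CPM (SD, n = 3), and the log2 fold change was −0.14 (SE 0.093, 95% interval −0.33 to 0.05, adjusted p = 0.355 by edgeR). MIR4435-2HG had 60.3, 60.3 and 61.1 CPM in the shCtrl libraries and 55.1, 55.1 and 53.3 CPM in the shmiR155HG libraries. Its groups did not overlap, and its log2 fold change was −0.15 (SE 0.062, 95% interval −0.28 to −0.02, adjusted p = 0.103 by edgeR). Summed, which avoids the split, the copies differed by −0.15 on the log2 scale (SE 0.055, adjusted p = 0.0661 by edgeR), which was not called.

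PVT1 (ENSG00000249859, plus strand, 13 exons and 2450 nt in its longest transcript) lies downstream of MYC, and in tumours is often amplified with it. It stood at 37.0, 38.3 and 39.8 CPM in the shCtrl libraries and at 42.0, 45.6 and 41.0 CPM in the shmiR155HG libraries. The groups did not overlap, but the gap between them was smaller than the SD of either. The means were 38.4 ± 1.43 CPM and 42.8 ± 2.45 CPM (SD, n = 3), and the log2 fold change was 0.16 (SE 0.074, 95% interval 0.0081 to 0.31, unadjusted p = 0.0397, adjusted p = 0.158 by edgeR). PVT1 was thus not called, in any of its 16 alternatives. MYC, a transcription factor of cell growth, stood at 362.6, 383.8 and 404.3 CPM in the shCtrl libraries and at 490.9, 480.6 and 479.0 CPM in the shmiR155HG libraries. MYC rose from 384 ± 20.9 CPM to 484 ± 6.44 CPM, 0.33 higher on the log2 scale (SE 0.037, adjusted p = 1.59e-07 by edgeR), and kept its call with any library left out. Both estimates are positive, and whether the change of PVT1 differs from that of MYC was not tested. Over the 14 tested neighbours of the 8 lncRNAs, MYC was the 1 called higher and NUSAP1 the 1 called lower (14.3% called, near the 15.3% of all genes).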

How the data were processed

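RNA-seq libraries from NK92 cells, 3 shCtrl and 3 shmiR155HG, were compared. The authors used HISAT2 for alignment to hg38 and StringTie on known transcripts with prepDE.py3 for counting, and the deposited read counts per gene are whole numbers that were not normalized. The annotation release and strandedness are not given in the sources used here. Whether a count stands for 1 read is not known, so halved counts were an alternative. As in the study, a gene was tested if 2 or more libraries exceeded 1 CPM.

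Counts were scaled with TMM and tested with the quasi-likelihood test of edgeR 4.0.16 (robust fit, Benjamini-Hochberg adjustment over 12263 genes, threshold 0.05) in R 4.3.3, without a replicate block. CPM values are scaled by TMM, SD is between libraries of a group and SE is of the log2 fold change. The methods were tested on simulated data. The labels do not say that libraries came from separate cultures, so p-values measure the spread between these libraries, which may be technical. No 2 libraries agreed within sampling noise (mean chi-square 7.35 to 10.9 per gene). Intervals come from the same fit, so they cover counting error and the spread between these libraries, and need not cover the spread between cultures. The limit given for KCNQ1, which had no counts, covers counting error only.

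The 8 lncRNAs and all gene lists were chosen with earlier results of these data known. From each list, genes with an adjusted p under 0.05 and a mean of at least 5 CPM were named, at most 3 per direction by size of change, plus set partners of each lncRNA. Some listed genes are counted but not reported here by name. Positions and exons came from GENCODE on hg38, perhaps of another release than the counts. Motifs were searched on the transcript strand of the longest annotated transcript of each gene. The seed of miR-6756, also meant to be searched, was not used here. Alternatives were DESeq2 1.42.0 and limma-voom (limma 3.58.1), the exact test of edgeR (P under 0.01, fold over 1.2), DESeq2's size factors, total counts, other filters (none, filterByExpr, mean of at least 5 CPM), the replicate block, sums with overlapping or copied genes, and each library left out.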

Additional observations from a re-analysis of the deposited data

How the results depend on the processing

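The alternatives gave 133 values for the 8 lncRNAs, each for a single lncRNA under a single setting. Of these values, 124 kept the direction and the side of the threshold, 5 turned the direction and 4 lost the call of TUG1. TUG1 was called in 13 of 17 refits, with a log2 fold change from 0.10 to 0.17 with a library left out. The number of lncRNAs called higher was 0 under the exact test (TUG1 at 0.14) and 0 to 1 with a library left out, and none was called lower in any refit. In the main edgeR fit, 3 had an unadjusted p under 0.05, and all 3 were higher in shmiR155HG. With a library left out, the log2 fold change ran from −0.0661 to 0.0665 for NEAT1 (0.0665 without shCtrl replicate 1 and 0.0179 without shmiR155HG replicate 1), from −0.0519 to 0.0082 for MALAT1 (positive without shmiR155HG replicate 2) and from −0.0062 to 0.0489 for NORAD (negative without shCtrl replicate 3). It ran from 0.42 to 0.61 for KCNQ1OT1, from 0.04 to 0.07 for OIP5-AS1, from −0.20 to −0.07 for CYTOR and from 0.11 to 0.19 for PVT1. OIP5-AS1 summed with its overlapping genes turned to −0.0327. The difference between the group means of the log2 ratio of NEAT1 to MALAT1 ran from −0.0523 to 0.0986 with a library left out. This difference was below 0 without shCtrl replicates 2 (−0.0523) or 3 (−0.0200) or shmiR155HG replicates 2 (−0.0349) or 3 (−0.0138). Partner genes turned without shCtrl replicate 3, namely SRRM2 (range −0.0449 to 0.0245), SRSF1 (−0.000122 to 0.0234) and ZSWIM8 (−0.0756 to 0.0148), or without shCtrl replicate 2, namely PUM2 (−0.0805 to 0.0116).

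Over all genes, the exact test called 551 higher and 466 lower, and with a library left out 580 to 891 were higher and 674 to 917 lower. The replicate numbers did not pair the libraries (correlations of same-numbered libraries' deviations −0.013, 0.012 and 0.020). With the replicate block, TUG1 stayed called (log2 fold change 0.14, adjusted p = 0.0179 by edgeR), no other lncRNA was called, SFPQ lost its call (adjusted p = 0.0620 by edgeR), OIP5 gained one (adjusted p = 0.0444 by edgeR), no other partner gene's call changed, and 829 genes were higher and 909 lower. A filter at a mean of 5 CPM removed KCNQ1OT1, which then had no value. KCNQ1OT1 rests on the fewest counts of the 8, from 92 to 172 per library. The alternatives of partner genes and lists were chosen after seeing the data.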

Other observations

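Of 42 other lncRNAs that many cell types express, 2 were higher and 4, MIR155HG among them, were lower in shmiR155HG cells. This was 14.3% called, near the 15.3% of all genes, with a median log2 fold change of 0.05. The share includes MIR155HG, which was meant to fall as the target of the hairpin. MIR155HG also passed the filter only through the shCtrl libraries. Apart from MIR155HG itself, LUCAT1, a lncRNA induced by stress and by inflammatory signals, fell from 26.3 ± 1.57 CPM to 18.3 ± 2.05 CPM (SD, n = 3; log2 fold change −0.52, SE 0.10, adjusted p = 0.000679 by edgeR) and kept its call with any library left out. LINC00342 fell from 38.5 ± 3.59 CPM to 30.5 ± 0.361 CPM (−0.34, SE 0.082, adjusted p = 0.00470), a call lost without shCtrl replicate 1. OTUD6B-AS1 fell from 57.2 ± 2.40 CPM to 49.4 ± 1.23 CPM (−0.21, SE 0.065, adjusted p = 0.0251, by edgeR as above) and was called in 2 of the 6 fits with a library left out.

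Among 21 genes of the nuclear exosome and its adaptors, which degrade nuclear RNAs, 1 rose and 1 fell (9.52% called, against 15.3% of all genes), with a median log2 fold change of −0.0082. EXOSC6, a subunit of the exosome ring, rose from 88.1 ± 3.99 CPM to 104 ± 0.744 CPM (log2 fold change 0.24, SE 0.052, adjusted p = 0.00206 by edgeR) and kept its call with any library left out, but neither gene was called by the rule used in the study. The gene that fell was RBM7, an adaptor of the exosome. Of all 12263 genes, the rule used in the study called 551 higher and 466 lower.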
